A study of Homo sapiens with 6 samples.

Results

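A set of 10 genes of cysteine and glutathione metabolism were followed in HCT116 cells, from cystine import through transsulfuration and glutathione synthesis to recycling and breakdown. They were SLC7A11, SLC3A2, CBS, CTH, GCLC, GCLM, GSS, GSR, CHAC1 and CHAC2, and were taken by symbol from a table of 35106 gene identifiers. All 10 were found, and 9 had enough counts to be tested. HCT116 is an established human colon cancer cell line, labelled wild type here, and shikonin is a red naphthoquinone of Lithospermum erythrorhizon roots. Messenger RNA was sequenced from 3 libraries labelled shikonin, for which the labels give 8 μM for 24 h, and 3 libraries labelled control with no treatment. The study's methods give a lower dose for the same 24 h, and the drug was dissolved in DMSO. Whether the control cells received DMSO is not stated. Separate cultures are not mentioned for the replicates, so the p-values cover no more than the spread among these 6 libraries, which may be technical.

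The libraries held 18845690 to 21765806 estimated counts in the shikonin treatment group and 18874211 to 19781383 in the control group. Of 8 colon epithelial markers, EPCAM, CDH1, KRT8, KRT18, KRT19 and CDX2 were present and VIL1 and CDX1 were at 0 in all libraries. The markers summed to 3572 to 4192 CPM (counts scaled to a common library total) in the shikonin libraries and 3578 to 3864 CPM in the control libraries. Of 5 leukocyte markers, 4 (PTPRC, CD3E, CD79A and LYZ) stayed under 1 CPM in all libraries, with CD3E at 0. The sum of the 5, CD68 included, was 17.2 to 21.3 CPM in the shikonin libraries and 11.5 to 13.7 CPM in the control libraries, without overlap, and its part in the results was not tested. Of 5 markers of fibroblasts and endothelium, 4 stayed under 1 CPM, with DCN and CDH5 at 0, and the sum was 26.5 to 35.2 CPM in the shikonin libraries and 31.0 to 34.6 CPM in the control libraries. Over the 13548 genes tested with edgeR's quasi-likelihood test, 1460 were higher and 1504 were lower in the shikonin libraries at a threshold of 0.05 on the adjusted p. Scaling by library totals alone gave 1033 higher and 2150 lower. In bulk RNA, less RNA per cell and fewer cells that hold it cannot be told apart.

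Glutathione is the main thiol antioxidant of the cell. Its limiting building block is cysteine, which tumour cells import mainly as cystine or make from methionine by transsulfuration. The enzymes of synthesis and recycling are classical targets of NRF2, the transcription factor of the oxidative stress response. The cystine importer and the glutathione-degrading enzyme CHAC1 also belong to the programme of ATF4, the transcription factor of the amino acid and integrated stress responses. NRF2 binds antioxidant response elements and ATF4 binds C/EBP-ATF response elements, and the core letters of both can be looked up in promoters.

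RefSeq promoter windows on GRCh38.p14, from 250 bases before to 50 after a transcript start, matched 7 of the 10 genes with 12 windows. SLC7A11, GSS and GSR were not among them. The antioxidant core was searched as TGACNNNGC and the C/EBP-ATF element as TGATGNAA, on both strands, and no printed match of one overlaps a match of the other. Of all 35116 windows, 13.35% held TGACNNNGC and 3.62% held TGATGNAA. The 3 stretches of 30 bases shown here are those with a match before the RefSeq start of the window in a gene that was tested, with the match in capitals. That start need not be the outermost start of the gene in GENCODE 44, which the coordinates of the genes further on use.
SLC3A2, chr11:62881652-62881681, plus strand, match 37 bases before the RefSeq start: cgagggtgggTGACTCAGCgtcctccttcc
GCLM, chr1:93909445-93909474, minus strand, match 34 bases before the RefSeq start: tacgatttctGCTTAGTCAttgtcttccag
CHAC1, chr15:40953251-40953280, plus strand, match 209 bases before the RefSeq start: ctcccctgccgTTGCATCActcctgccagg
The SLC3A2 and GCLM windows held the antioxidant letters, in GCLM on the opposite strand, and the CHAC1 window held the C/EBP-ATF letters on the opposite strand. In SLC3A2 the RefSeq start of that window, at 62881699, is internal, 25695 bases inside the gene, and the other 2 windows of the gene, the one at its outermost start included, held no match. In GCLM the RefSeq start, at 93909430, lies 26 bases inside the gene, and 1 base of the match falls in its annotated exon. In CHAC1 the RefSeq start, at 40953471, lies 509 bases inside the gene, so the whole match is in an exon of a transcript that starts earlier. Of 3 windows of CBS, 1 also held TGACNNNGC, and the same SLC3A2 window held TGATGNAA after its start. The windows of CTH, GCLC and CHAC2 held neither. A match of letters is a description of the sequence and does not show that a factor binds there.

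Of the 9 tested genes, 5 rose in the shikonin treatment group and none fell. CTH, GCLC, GCLM, GSR and CHAC2 rose, and in each the lowest shikonin library lay above the highest control library. Over all tested genes 21.9% changed, 10.8% being higher, and the libraries of 38.4% separated, 18.1% in this direction. SLC7A11, SLC3A2, GSS and CHAC1 did not pass the test, and their libraries overlapped. No gene of the 10 was lower at an unadjusted p under 0.05 with edgeR, DESeq2 or limma-voom (0 with each). DESeq2 called 6 higher, adding SLC3A2, and limma-voom called 5. With an offset for the GC content and length of transcripts, 6 were higher, adding SLC7A11, and 1 was lower, CHAC1. The median log2 fold change of the 9 genes was 0.51, against -0.02 over all tested genes.

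**Figure D1:**
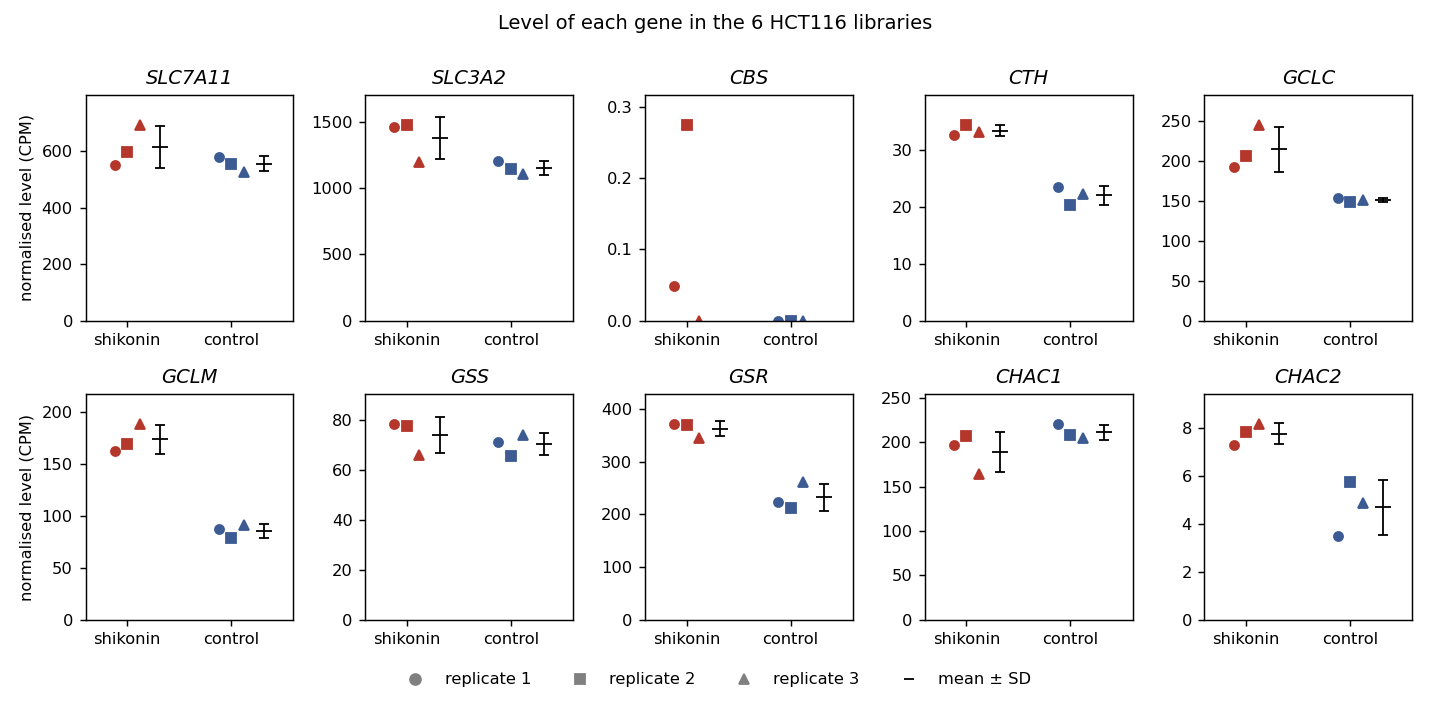
Normalised level in CPM (vertical axes, from 0) of each of the 10 genes in the 3 shikonin libraries and the 3 control libraries, with the marker shape giving the replicate number and the bar the mean ± SD, left out for CBS. The libraries separate for CTH, GCLC, GCLM, GSR and CHAC2, and overlap for the other genes.

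SLC7A11 encodes xCT, the subunit that exchanges cystine for glutamate. It lies on chromosome 4 (138164097 to 138242349, minus strand, GRCh38), its main transcript has 9645 bases in 12 exons, and it overlaps the antisense gene SLC7A11-AS1. SLC7A11 was at 552, 598 and 695 CPM in the shikonin libraries, against 581, 556 and 528 CPM in the control libraries. Shikonin replicate 1 lay inside the control range, and replicates 2 and 3 lay above it. The log2 fold change was 0.15 (standard error 0.09, adjusted p = 0.261 with edgeR), with a 95% interval from 0.97-fold to 1.27-fold. The offset for GC content and length gave 0.33 (standard error 0.07, adjusted p = 0.00247), and the adjusted p ran from 0.00247 to 1 over all alternatives, the highest from the test against a fold of 1.5. After the offset, SLC7A11 stood at 9.31, 9.42 and 9.32 on the log2 scale in the shikonin libraries, against 9.06, 8.99 and 9.02 in the control libraries, without overlap. The offset was fitted in each library, so it also removes a length or GC trend that differs between the groups. Without shikonin replicate 3 the log2 fold change was 0.07.

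SLC3A2 encodes CD98hc, the heavy chain that carries xCT and several other amino acid exchangers to the membrane. It lies on chromosome 11 (62856004 to 62888880, plus strand), with a transcript of 1885 bases in 9 exons. Its level was 1462, 1482 and 1196 CPM in the shikonin libraries, against 1207, 1147 and 1106 CPM in the control libraries. Shikonin replicates 1 and 2 lay above all control libraries, and replicate 3 fell between control replicates 1 and 2. The log2 fold change was 0.26 (standard error 0.09, adjusted p = 0.0598), with a 95% interval from 1.04-fold to 1.37-fold. SLC3A2 passed with DESeq2 (0.27, adjusted p = 0.00992) and with edgeR without a filter on low counts (adjusted p = 0.0331). That unfiltered fit gave far smaller adjusted p-values to other genes at nearly the same fold change. For GCLM it gave 8.89e-33, against 3.32e-06 with the filter. Without shikonin replicate 3 it was 0.38 (adjusted p = 0.000908), and with the offset for GC content and length it was 0.14 (adjusted p = 0.21). Over all alternatives its adjusted p ran from 0.000908 to 1.

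The subunits were therefore also compared inside each library, where the scaling of libraries drops out. A trend with GC content or length inside a library does not drop out, and the transcripts of SLC7A11 and SLC3A2 have 35.4% and 57.8% GC. The ratio of SLC7A11 to SLC3A2 counts was 0.378, 0.404 and 0.581 in the shikonin libraries, against 0.481, 0.485 and 0.477 in the control libraries. Shikonin replicates 1 and 2 lay below the control libraries and replicate 3 above, while the control libraries were nearly equal. The mean log2 ratio was -1.17 ± 0.33 in the shikonin libraries and -1.06 ± 0.01 in the control libraries (SD, n = 3 each), a difference of -0.11 (exact two-sided permutation p = 0.7). Without shikonin replicate 1 this difference was 0.0091. No ratio was taken after the offset for GC content and length. With that offset the log2 fold change was 0.33 for SLC7A11 and 0.14 for SLC3A2.

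Of the other light chains that pair with SLC3A2, 3 of 5 were tested. SLC7A8, an exchanger of neutral amino acids, was lower at 17.3 ± 2.57 CPM in the shikonin libraries and 26.6 ± 3.65 CPM in the control libraries (SD, n = 3 each; log2 fold change -0.62, adjusted p = 0.00437 with edgeR). None was higher, also at an unadjusted p or with DESeq2 or limma-voom (0 with each). With 3 genes tested, 1 lower is a share of 33.3%, against 11.1% lower and 10.8% higher over all tested genes. Of 7 other carriers of cysteine, cystine and glutamine, 6 were tested, 2 were lower and none was higher (0 with each tool, also at an unadjusted p), again 33.3% lower against 11.1% over all tested genes. MFSD12, which loads cysteine into lysosomes and melanosomes, was at -0.28 on the log2 scale (adjusted p = 0.0156). SLC1A1, a neuronal and epithelial glutamate and cysteine transporter, was at -0.31 (adjusted p = 0.0298). Leaving out control replicate 2 left 0 lower carriers, and leaving out shikonin replicate 1, shikonin replicate 2 or either other control library left 1. Over all genes these fits called 776 to 1064 lower, against 1504 with all 6 libraries.

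In transsulfuration, cystathionine beta-synthase, encoded by CBS, joins homocysteine with serine to cystathionine. Cystathionine gamma-lyase, encoded by CTH, then cleaves cystathionine and releases cysteine. CTH lies on chromosome 1 (70411218 to 70439851, plus strand), with a transcript of 2090 bases in 12 exons, and overlaps Metazoa_SRP on the same strand. CTH was at 32.7, 34.5 and 33.2 CPM in the shikonin libraries, against 23.5, 20.3 and 22.3 CPM in the control libraries. Each group was tight and the groups were far apart relative to their spread. The rise was 1.52-fold, with a 95% interval from 1.32-fold to 1.74-fold (log2 fold change 0.60, standard error 0.09, adjusted p = 0.000565 with edgeR). With the offset for GC content and length it was 0.56.

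CBS, on chromosome 21 (43053191 to 43076943, minus strand, 17 exons in its main transcript), was not tested. It had 1, 5 and 0 estimated counts in the shikonin libraries and 0 in every control library. A count of 0 allows up to 3 counts, or 0.149 to 0.156 CPM in a control library, counting error only, so no fold is given. The assembly holds a near-identical copy, CBSL, which had 1, 0 and 0 counts in the shikonin libraries and 0 in every control library. The sum of the copies was therefore 2, 5 and 0 counts in the shikonin libraries and 0 in every control library. For U2AF1 and U2AF1L5, another such pair of copies, both had counts in every library, with 184 to 275 and 1318 to 1679 in the shikonin libraries and 212 to 307 and 1107 to 1302 in the control libraries. How reads that match both copies were counted is not given in the sources used here, so the low counts of CBS do not show that the gene was silent.

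The surrounding methionine cycle and sulfur amino acid breakdown moved in no common direction. Of 17 genes, 15 were tested, 3 were higher and 3 were lower, with a median log2 fold change of 0.02. MPST, which makes hydrogen sulfide from mercaptopyruvate, was at 0.38 (adjusted p = 0.00514), MTRR, which reactivates methionine synthase, at 0.43 (adjusted p = 0.00697) and MTAP, of methionine salvage, at 0.35 (adjusted p = 0.0129). SUOX, the sulfite oxidase, was at -0.55 (adjusted p = 0.00359), CSAD, of taurine synthesis, at -0.73 (adjusted p = 0.00535) and SQOR, which oxidises hydrogen sulfide, at -0.32 (adjusted p = 0.0402). MTAP and SQOR are named after their values were seen. The share that rose was 20%, and so was the share that fell, against 10.8% and 11.1% over all tested genes.

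Glutamate-cysteine ligase, which joins glutamate and cysteine, is made of the catalytic subunit GCLC and the modifier subunit GCLM. GCLM had the largest change of the 9 genes and the smallest p, ranked 11 among all tested genes. It lies on chromosome 1 (93885199 to 93909456, minus strand), with a transcript of 4883 bases in 7 exons, and its window held the antioxidant letters printed above. GCLM was at 163, 170 and 189 CPM in the shikonin libraries, against 87.3, 78.5 and 91.6 CPM in the control libraries. The rise was 2.03-fold, with a 95% interval from 1.80-fold to 2.28-fold (log2 fold change 1.02, standard error 0.08, adjusted p = 3.32e-06 with edgeR). It was the only gene of the 10 that passed a test against a fold of 1.5.

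GCLC lies on chromosome 6 (53497341 to 53616970, minus strand), with a transcript of 3785 bases in 16 exons. It overlaps an unnamed gene on the same strand and the antisense genes GCLC-AS1 and LINC01564. GCLC was at 192, 205 and 245 CPM in the shikonin libraries, against 153, 148 and 151 CPM in the control libraries. Shikonin replicate 3 stood above the other shikonin libraries, and the control libraries differed by little. The rise was 1.42-fold, with a 95% interval from 1.25-fold to 1.61-fold (log2 fold change 0.51, standard error 0.09, adjusted p = 0.00103 with edgeR), and without shikonin replicate 3 it was 0.42 on the log2 scale.

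The subunits were also compared inside each library. The ratio of GCLM to GCLC counts was 0.849, 0.826 and 0.771 in the shikonin libraries, against 0.570, 0.530 and 0.608 in the control libraries. Per base of transcript the ratio was 0.658, 0.640 and 0.598 in the shikonin libraries, against 0.442, 0.411 and 0.471 in the control libraries, so that GCLC stayed above GCLM in every library. The log2 ratio differed by 0.52 between the groups, which did not overlap. The exact two-sided permutation p was 0.1, the smallest that 3 libraries against 3 allow, and 0.133 when adjusted over the 4 pairs compared.

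GSS encodes glutathione synthetase, which adds glycine in the last step. It lies on chromosome 20 (34928432 to 34956027, minus strand), with a transcript of 1909 bases in 13 exons, and overlaps MYH7B on the other strand. GSS was at 78.7, 77.9 and 66.0 CPM in the shikonin libraries, against 71.3, 65.9 and 74.3 CPM in the control libraries, and the groups overlapped. The log2 fold change was 0.07 (standard error 0.08, adjusted p = 0.574 with edgeR), with a 95% interval from 0.93-fold to 1.19-fold, so a rise of the size seen in GCLC lies outside it. With the offset for GC content and length it was -0.04, and without shikonin replicate 3 it was 0.18.

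GSR encodes glutathione reductase, which returns oxidised glutathione to its reduced form with NADPH. It lies on chromosome 8 (30678066 to 30727846, minus strand), with a transcript of 3034 bases in 13 exons. GSR was at 372, 371 and 346 CPM in the shikonin libraries, against 225, 211 and 261 CPM in the control libraries. The rise was 1.56-fold, with a 95% interval from 1.38-fold to 1.77-fold (log2 fold change 0.64, standard error 0.08, adjusted p = 0.000175 with edgeR). The ratio of GSR to GSS counts was 4.73, 4.76 and 5.23 in the shikonin libraries, against 3.15, 3.21 and 3.52 in the control libraries, again without overlap. The difference of the log2 ratios was 0.58 (exact two-sided permutation p = 0.1, adjusted p = 0.133).

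CHAC1 and CHAC2 encode gamma-glutamylcyclotransferases of the cytosol, which cleave glutathione to 5-oxoproline and cysteinylglycine. CHAC1 is the stress-induced enzyme and CHAC2 the slower, constitutive one. CHAC1 lies on chromosome 15 (40952962 to 40956512, plus strand), with a transcript of 1520 bases in 3 exons, and its window held the C/EBP-ATF letters printed above. CHAC1 was at 197, 207 and 164 CPM in the shikonin libraries, against 221, 208 and 204 CPM in the control libraries. Shikonin replicate 2 fell among the control libraries, and replicates 1 and 3 lay below them. The log2 fold change was -0.16 (standard error 0.09, adjusted p = 0.208 with edgeR), with a 95% interval from 0.79-fold to 1.02-fold. With the offset for GC content and length it was -0.31 (adjusted p = 0.00696), and without shikonin replicate 3 it was -0.04. Over all alternatives the adjusted p ran from 0.00696 to 1.

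CHAC2 lies on chromosome 2 (53767804 to 53775196, plus strand), with a transcript of 1309 bases in 3 exons, and overlaps ASB3 on the other strand. It had few counts, with 152, 143 and 165 in the shikonin libraries, against 67, 114 and 98 in the control libraries. In CPM the values were 7.29, 7.86 and 8.19 in the shikonin libraries, against 3.48, 5.77 and 4.86 in the control libraries. The rise was 1.65-fold, with a 95% interval from 1.24-fold to 2.21-fold (log2 fold change 0.72, standard error 0.20, adjusted p = 0.0165 with edgeR). The call was lost without control replicate 1 (0.55, adjusted p = 0.0767) and without shikonin replicate 2 (0.72, adjusted p = 0.0514). Over all alternatives the adjusted p ran from 0.00289 to 1, the lowest from the edgeR fit without a filter on low counts.

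The paralogs were compared in the same way. The ratio of CHAC1 to CHAC2 counts was 26.9, 26.2 and 19.9 in the shikonin libraries, against 63.0, 35.9 and 41.8 in the control libraries, without overlap. The difference of the log2 ratios was -0.92 (exact two-sided permutation p = 0.1, adjusted p = 0.133). CHAC1 remained far above CHAC2 in every library.

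**Figure D2:**
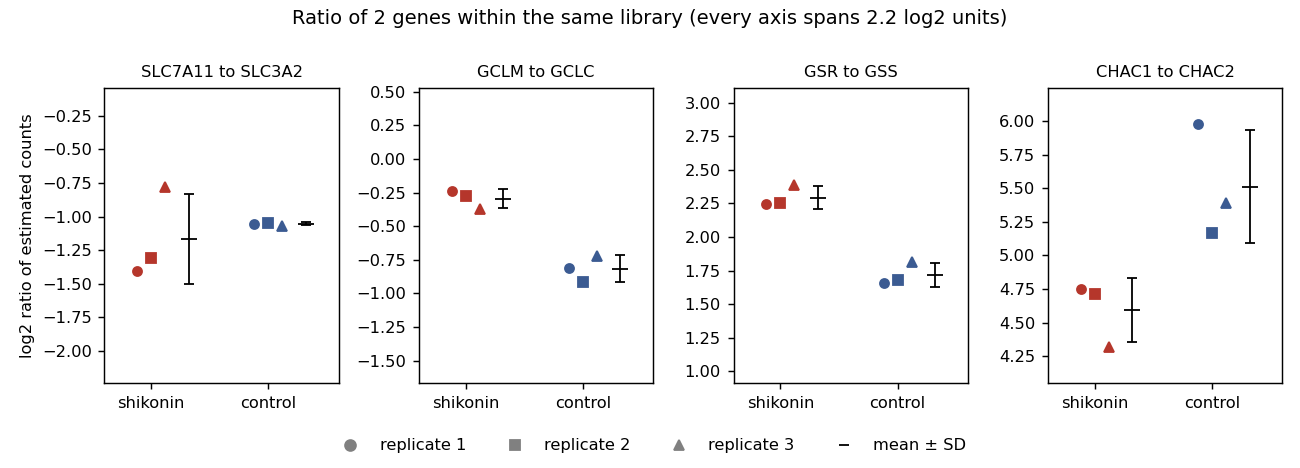
Log2 ratio of the estimated counts of paired genes within each library (vertical axes, each spanning 2.2 log2 units) in the 3 shikonin and the 3 control libraries, with bars for the mean ± SD. The groups overlap for SLC7A11 to SLC3A2 and separate for GCLM to GCLC and GSR to GSS, higher in shikonin, and for CHAC1 to CHAC2, lower in shikonin.

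The gamma-glutamyl cycle, which breaks down exported glutathione, and the carriers of glutathione gave few calls. Of 15 genes, 11 were tested, 1 was higher and 2 were lower, shares of 9.09% and 18.2% against 10.8% and 11.1% over all tested genes. ABCC1, an exporter of glutathione and its conjugates, was at 0.37 on the log2 scale (adjusted p = 0.0465), LAP3, a leucine aminopeptidase, at -0.24 (adjusted p = 0.0331) and SLC25A40, of mitochondrial glutathione import, at -0.43 (adjusted p = 0.0383). Higher genes numbered 3 without shikonin replicate 3 and 0 without shikonin replicate 1 or any 1 control replicate. Lower genes numbered 0 without shikonin replicate 1, shikonin replicate 2 or any 1 control replicate. Over all genes, 2074 were higher without shikonin replicate 3, and 861 to 1144 without shikonin replicate 1 or any 1 control replicate. The fits that left 0 lower genes here called 776 to 1064 lower over all genes. With all 6 libraries these numbers were 1460 higher and 1504 lower.

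Per kilobase of transcript, the order of the genes by mean level was SLC3A2, CHAC1, GSR, SLC7A11, GCLC, GSS, GCLM, CTH and CHAC2 in both groups, with CBS left out because its counts are uncertain. SLC3A2 was at 732 ± 84.7 CPM per kilobase in the shikonin libraries and 612 ± 27.0 in the control libraries (SD, n = 3 each). SLC7A11, its partner, was at 63.8 ± 7.57 in the shikonin libraries and 57.6 ± 2.76 in the control libraries. In the shikonin libraries the ranges of CHAC1 and GSR, of SLC7A11 and GCLC, and of GSS and GCLM, neighbours in this order, overlapped. In the control libraries no neighbours overlapped. GSR was at 120 ± 4.89 CPM per kilobase in the shikonin libraries and 76.6 ± 8.54 in the control libraries, while CHAC1 was at 124 ± 14.9 in the shikonin libraries and 139 ± 5.72 in the control libraries.

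**Figure D3:**
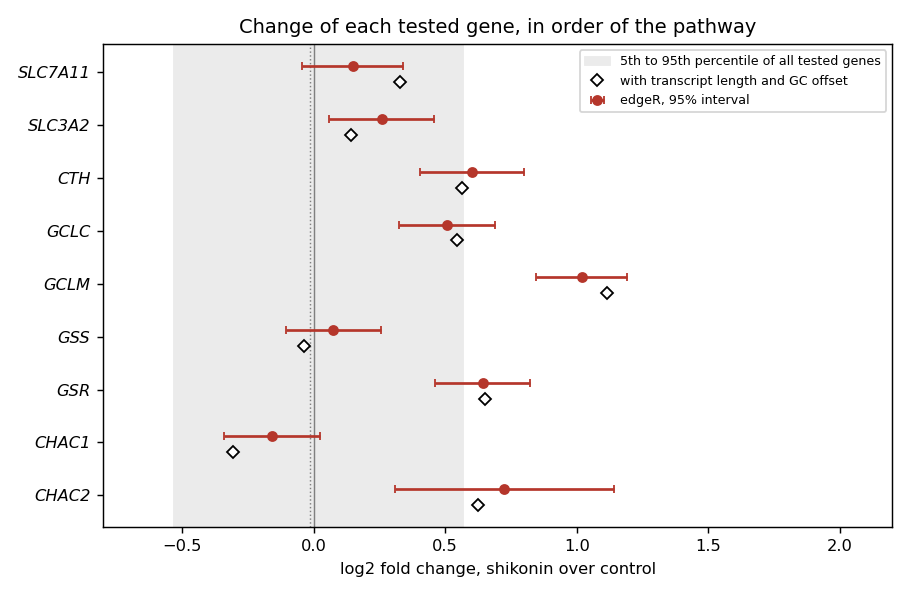
Log2 fold change of shikonin over control (horizontal axis) for the 9 tested genes in pathway order, with 95% intervals from edgeR as filled points and the value with an offset for GC content and length of transcripts as open diamonds. The grey band spans -0.53 to 0.57, the 5th to the 95th percentile of all tested genes; GCLM, CTH, GSR and CHAC2 lie beyond it, GCLC inside it.

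Shikonin replicate 3 differed from the other shikonin libraries in a way that followed the base composition of the transcripts. No such trend is given here for any other library. Shikonin replicates 1 and 2 also differed beyond sampling noise (chi-square per degree of freedom 13.7). The pairs with shikonin replicate 3 had 19.6 and 14.4. Shikonin replicate 3 was the highest of the 3 shikonin libraries for SLC7A11, CHAC2, GCLM and GCLC, whose transcripts have 35.4%, 36.3%, 37.3% and 44.2% GC. It was the lowest for GSR, GSS, SLC3A2 and CHAC1, with 46.7%, 55.9%, 57.8% and 61.3% GC, and in the middle for CTH, with 43.0%. On the log2 scale, shikonin replicate 3 exceeded the mean of shikonin replicates 1 and 2 by 0.27 for SLC7A11 and 0.30 for GCLC. For SLC3A2 and CHAC1 the difference was -0.30 each, and for GSS -0.24.

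Over 13515 genes with an annotated transcript, the same difference had a Spearman's rho of -0.52 with GC content, a description across genes of the same libraries. Its median was 0.24 in the genes with 30.7% to 41.0% GC and -0.12 in those with 59.0% to 76.0%. After the offset for GC content and length the rho was -0.03, as the offset is built to remove such a trend. After it, shikonin replicate 3 exceeded the other shikonin libraries by 0.20 for GCLC, was at -0.20 for SLC3A2 and CHAC1, at -0.18 for CHAC2 and at -0.15 for GSS, and ran from -0.13 to -0.05 for the other 4 genes. The fold change between the groups itself had a rho of -0.31 with transcript length and 0.14 with GC content. The part of base composition in the change of any gene here was not tested beyond these values.

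**Figure D4:**
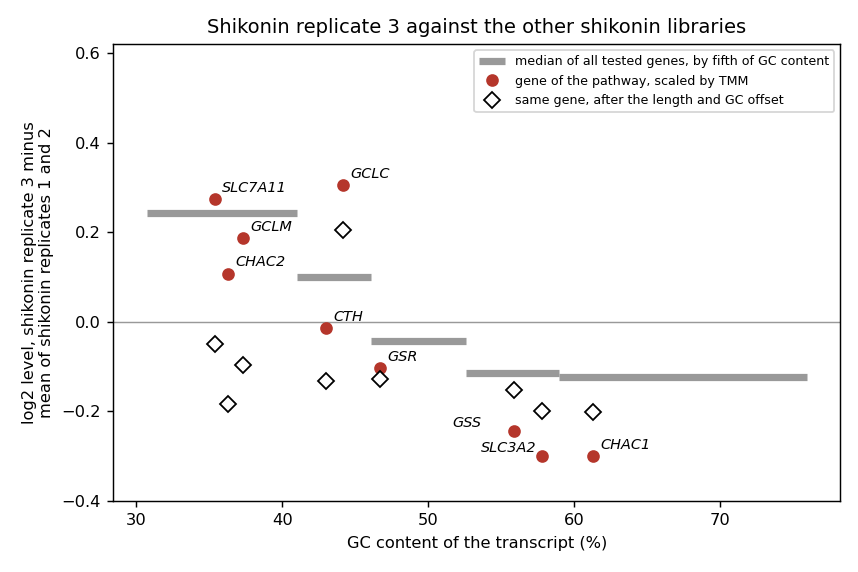
Log2 level in shikonin replicate 3 minus the mean of shikonin replicates 1 and 2 (vertical axis) against the GC content of the transcript in percent (horizontal axis), for the 9 tested genes before (filled) and after (open) the length and GC offset, with grey bars for the median of all tested genes in each of 5 equal bins of GC rank. Of the 5 genes with 35.4% to 44.2% GC, 4 lie above 0, up to 0.30 for GCLC, and CTH lies at -0.02, while the 4 genes with 46.7% to 61.3% GC lie below 0, down to -0.30 for CHAC1.

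The genes whose levels over the 6 libraries were most like CHAC1, among 11825 others with a mean of at least 50 counts, were KDM4A, YLPM1, TELO2, SLC1A4 and SEPTIN9, with Pearson's r of 0.990 to 0.997. None of these 5 genes passed the test between the groups (adjusted p of 0.258 to 0.396 with edgeR). The 6 points share libraries and depth, and with so few of them such values are a description only.

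The NRF2 and ATF4 programmes described above were set beside these genes with lists compiled from general knowledge, with earlier results of these libraries known. Whether either programme drove a change here was not tested. Of 20 NRF2 targets outside the pathway, 20 were higher and none was lower (0 at an unadjusted p, and 0 with DESeq2 or limma-voom). Their log2 fold changes ran from 0.27 to 3.64, with a median of 0.69. The highest, AKR1B10, is named after its value was seen. It had 43, 41 and 32 counts in the shikonin libraries, against 2, 7 and 0 in the control libraries. AKR1B10 thus passed the count filter only through the shikonin libraries. With a mean count of at least 50, 19 targets were higher. Of 24 ATF4 targets, 23 were tested, 9 were higher and none was lower, with a median of 0.17. At an unadjusted p 1 ATF4 target was lower with edgeR, DESeq2 and limma-voom, and 0 were lower with each after adjustment. These shares of higher genes, 100% and 39.1%, stand against 10.8% over all tested genes. Leaving out shikonin replicate 1 or shikonin replicate 2 left 4 higher ATF4 targets, and leaving out control replicate 2 left 5.

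The NRF2 targets with the smallest p were HMOX1, which degrades heme, at 1.99 on the log2 scale (adjusted p = 1.15e-08), ABCC2, an exporter of conjugates, at 1.35 (adjusted p = 6.26e-07), OSGIN1, a growth inhibitor induced by oxidative stress, at 1.05 (adjusted p = 1.46e-06), and FTL, the ferritin light chain, at 1.24 (adjusted p = 4.37e-06). Those among the ATF4 targets were PPP1R15A, which directs the dephosphorylation of eIF2alpha, at 0.78 (adjusted p = 5.21e-05), PYCR1, of proline synthesis, at 0.50 (adjusted p = 0.00115), AARS1, the alanyl-tRNA synthetase, at 0.49 (adjusted p = 0.0017), and STC2, a secreted glycoprotein, at 0.35 (adjusted p = 0.0036).

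Library by library, the median log2 level of the NRF2 targets over the control mean was 0.69, 0.80 and 0.70 in shikonin replicates 1, 2 and 3. That of the ATF4 targets was 0.15, 0.22 and 0.13. Shikonin replicate 3 was the lowest shikonin library for 19 of 23 ATF4 targets and for 14 of 20 NRF2 targets. In the pathway it was the lowest for GSR, GSS, SLC3A2 and CHAC1 and the highest for SLC7A11, CHAC2, GCLM and GCLC. The part of GC content in the place of this library among the listed targets was not tested. GCLM, at 1.02, lay above the median of the NRF2 targets, and GSR, CTH and GCLC, at 0.64, 0.60 and 0.51, lay below it. CHAC2, at 0.72, also lay above the median of the NRF2 targets. SLC3A2, SLC7A11, GSS and CHAC1, at 0.26, 0.15, 0.07 and -0.16, lay below it. Against the median of the ATF4 targets, SLC7A11, at 0.15, GSS and CHAC1, at -0.16, lay below and SLC3A2, at 0.26, above, as did GCLM, CHAC2, GSR, CTH and GCLC. With the offset for GC content and length SLC7A11 was at 0.33 and SLC3A2 at 0.14.

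Among 8 transcription regulators of these genes, 2 were higher and none was lower (0 at an unadjusted p, and 0 with DESeq2 or limma-voom). The share that rose was 25%, against 10.8% over all tested genes, of which 11.1% fell. The 2 were MAFG and MAFF, small MAF proteins that pair with NRF2, at log2 fold changes of 0.36 (adjusted p = 0.00561) and 0.37 (adjusted p = 0.0061). The messages of NRF2 and ATF4 themselves, singled out after their values were seen, did not pass. Message levels do not measure the activity of either factor, which was not tested. NFE2L2, which encodes NRF2, averaged 157 ± 21.2 CPM in the shikonin libraries and 167 ± 10.6 CPM in the control libraries (SD, n = 3 each; log2 fold change -0.09, adjusted p = 0.545 with edgeR). ATF4 averaged 807 ± 43.8 CPM in the shikonin libraries and 776 ± 35.7 CPM in the control libraries (SD, n = 3 each; log2 fold change 0.06, adjusted p = 0.654 with edgeR). Without shikonin replicate 3, 5 of the 8 regulators were higher. In that fit 2074 of all 13725 tested genes were higher, against 1460 of 13548 with all 6 libraries.

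**Figure D5:**
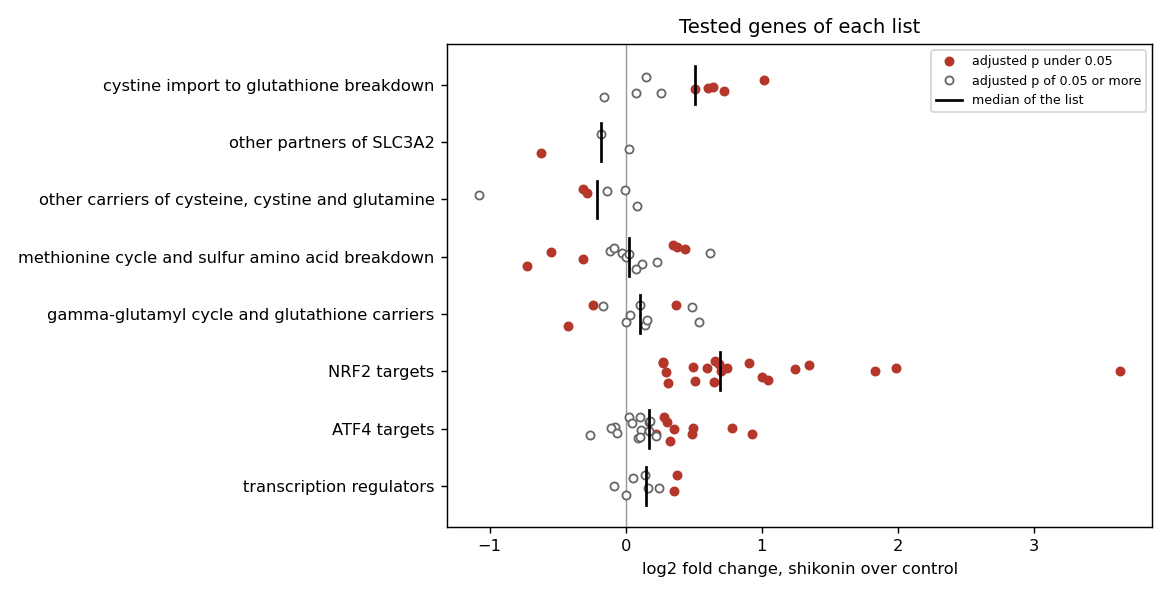
Log2 fold change of shikonin over control (horizontal axis) of every tested gene in the pathway and in 7 other lists, filled where the adjusted p was under 0.05, with a black line for each list's median. The NRF2 targets lie at 0.27 to 3.64 with a median of 0.69, while the ATF4 targets, with a median of 0.17, lie on both sides of 0. The NRF2 target at 3.64, AKR1B10, had only 2, 7 and 0 counts in the control libraries.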

How the data were processed

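Messenger RNA of HCT116 cells was sequenced in 3 shikonin and 3 control libraries. According to the study's methods, reads were aligned to hg38 with TopHat2 and counted with featureCounts, whereas the submitters' processing notes name mouse builds. The gene identifiers are human, and the counting's strand setting is not given in the sources used here. The deposited values are estimated counts that the authors left unscaled, with 46.5% to 63.3% of nonzero values fractional in a library. Counts were rounded, filtered by filterByExpr, scaled by TMM (trimmed mean of M values) and tested in R 4.3.3 with edgeR 4.0.16 (glmQLFit, glmQLFTest, groups only), with Benjamini-Hochberg adjustment over 13548 genes. The plan had allowed for rounding. Standard errors were taken as the absolute log2 fold change over the square root of F. CPM are counts scaled to a common library total after TMM. Coordinates and transcript lengths came from GENCODE 44, which matched 34979 identifiers, and promoter sequences from RefSeq (GRCh38.p14). Ratios used a pseudocount of 0.5.

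The genes, lists, tests and alternatives were chosen with earlier results of these data known. All 10 genes were named, and up to 4 genes of smallest p per list, with exceptions stated. For CHAC1 the 5 genes of highest Pearson's r were named, and the same for SLC7A11 is not reported here. Also run were limma-voom (limma 3.58.1), DESeq2 1.42.0, other scalings and filters, unrounded counts, an offset for GC content and length of transcripts (splines with 5 degrees of freedom), a replicate block, a 1.5-fold threshold test and fits that left out each library. The procedure was also run on simulated counts that held no GC or length trend, and the outcome is not reported here. Within groups, no 2 libraries agreed within sampling noise (chi-square per degree of freedom of 5.38 to 19.6). Adjusted p-values without a tool named are edgeR's. Genes that overlap on either strand and near-identical genes may share reads.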

Additional observations from a re-analysis of the deposited data

How the results depend on the processing

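Of the 10 genes, 5 were higher as reported and 4 to 6 in the fits that left out 1 library. Only the test against a fold of 1.5 moved this number by more than 1.5 times, to 1. That test left 0 lower light chains of SLC3A2, 0 lower carriers, 0 higher and 0 lower genes of the methionine cycle, 0 higher and 0 lower genes of the gamma-glutamyl cycle, 7 higher NRF2 targets, 0 higher ATF4 targets and 0 higher regulators. With the offset for GC content and length 1 of the 10 genes was lower (CHAC1), and 1 ATF4 target was lower. In the gamma-glutamyl cycle, 0 were higher with limma-voom or library totals and 2 without a filter. With library totals and without a filter 1 ATF4 target was lower. Leaving out 1 library gave 0 to 2 lower carriers, 0 to 3 higher and 0 to 2 lower genes of the gamma-glutamyl cycle, 4 to 13 higher ATF4 targets and 2 to 5 higher regulators. The difference of the log2 ratio of SLC7A11 to SLC3A2 ran from -0.30 to 0.0091 and changed sign without shikonin replicate 1. The offset was not among the alternatives for the ratios. Over all genes, the fold test called 38 higher and 24 lower, and leaving out 1 library gave 861 to 2074 higher and 776 to 1901 lower. The causes were not tested. For genes with few counts, such as CHAC2, depth limits the precision. CBS had too few counts to compare, and whether reads shared with its copy CBSL were left out of the count is not known here.

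The replicate numbers did not pair the libraries. Same-numbered libraries had correlations of -0.10, -0.11 and -0.07 of their deviations from the group means, and none correlated best with its own number. The only positive correlations were of shikonin replicates 1, 2 and 3 with control replicates 3, 1 and 2, at 0.13, 0.16 and 0.13. Whether the libraries were paired under other numbers was not tested. The replicate block used the numbers of the labels. With the replicate block 5 of the 10 genes were higher in edgeR and 6 in DESeq2. The replicate block in edgeR left 0 higher and 1 lower gene of the gamma-glutamyl cycle and 1 lower ATF4 target. In DESeq2 it left 0 higher and 0 lower genes of that cycle and 1 lower carrier, and over all genes 1031 higher and 776 lower. The replicate block with the GC and length offset gave 1 lower gene of the 10 (CHAC1) and 1 lower ATF4 target.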
